A study of Mus musculus with 6 samples.

Results

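The 10 genes described here, Vim, Lgals1, S100a4, S100a6, Anxa1, Thbs1, Mmp2, Bgn, Pdgfrb and Lum, are in common use as markers of fibroblasts and other mesenchymal cells. They were chosen by name, but with earlier results of these data known. Shares of all genes set beside their counts below are therefore a description and not a test. Every probe set (the short oligonucleotides on an array that report 1 transcript together) annotated to them was taken, which gave 19 of the 45037 probe sets tested and 10 of 18193 genes. A further probe set is annotated to Thbs1 and Pald1 together and is given apart. The genes were measured on 6 Affymetrix arrays from 3 clones of mouse embryonic stem cells (strain background 129/B6 hybrid). Clones 3086 and 3087 are labelled Yaf2kd, a knockdown of Yaf2, and clone 3031 is labelled Yaf2wt. Each clone gave 1 array from cells treated with 0.8 µM 4-hydroxytamoxifen for 24 hours to remove Rybp (OHT+) and 1 from cells without it (OHT-), so there were 2 Yaf2kd OHT+ arrays, 1 Yaf2wt OHT+ array, 2 Yaf2kd OHT- arrays and 1 Yaf2wt OHT- array.

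Rybp and Yaf2 are related subunits of variant Polycomb repressive complex 1, which places ubiquitin on histone H2A. All cells grew in serum with the cytokine sold as ESGRO (leukaemia inhibitory factor), and the labels give either irradiated mouse embryonic fibroblasts or gelatin as the surface without saying which sample had which. Feeder fibroblasts make many of the transcripts described here. Because the RNA is from bulk cultures, fewer cells of a type and less RNA per cell cannot be told apart. Yaf2wt is a single clone, so Yaf2 status and clone cannot be told apart. Every OHT+ sample is labelled as depleted of Rybp, so the drug and the loss of Rybp cannot be told apart either.

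Mesenchymal cells build and remodel the extracellular matrix and move through it. Their markers fall into roles: Vim is an intermediate filament protein, Lgals1 a galactoside-binding lectin, S100a4 and S100a6 calcium-binding proteins, and Anxa1 a calcium-dependent phospholipid-binding protein. Thbs1 is a secreted glycoprotein that binds matrix and can activate latent TGF-beta, Mmp2 is a gelatinase, Bgn and Lum are small leucine-rich proteoglycans, and Pdgfrb is a receptor tyrosine kinase for platelet-derived growth factor. Several of them, Vim and Lgals1 among them, are also made by cultured embryonic stem cells.

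The arrays were checked against their labels. A probe set annotated to Rybp together with its pseudogene Rybp-ps read 53.9 to 102 on OHT+ arrays and 1785 to 2262 on OHT- arrays, as the labels have it. Another with the same annotation ran the other way, at 2796 to 3443 on OHT+ arrays and 180 to 336 on OHT- arrays; what it detects is not known here, so it does not check the labels. The brightest Yaf2 probe set read 238 to 297 on Yaf2kd arrays and 769 to 816 on Yaf2wt arrays. All 10 embryonic stem cell markers were above the dim limit, a mean signal of 110.01 that 40% of genes lie under, on all 6 arrays. Replicate arrays were those of the 2 Yaf2kd clones in the same OHT state. Their median SD was 0.18 on the log2 scale for probe sets at or over the dim limit and 0.72 for those under it. The brightest probe set stands for each gene below unless another is named, and its signal is given as linear intensity, which does not compare the level of one gene with that of another.

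With OHT, all 10 genes had a higher mean log2 signal, where 49.5% of all genes did. Mmp2, Bgn, S100a6 and Pdgfrb were higher in each of the 3 clones, 4 of 10 genes, where 16.8% of all genes were. None of the 10 passed the test over all probe sets: limma called 0 of 45037 (0.0%) for the OHT effect, with 2956 at an unadjusted p under 0.05. A prior variance that follows intensity (the intensity trend) gave other counts: limma then called 63 probe sets (0.14%), again with none of the 10, and 101 (0.224%) when the clone was also a block, again with none of them. In Yaf2kd cells, all 10 were likewise higher by their mean than in the Yaf2wt clone, where 54.8% of all genes were. For that Yaf2 effect limma called 0 probe sets (0.0%), with 3011 past an unadjusted threshold of 0.05, and the intensity trend also gave 0. Yaf2 status varies only between clones, and these fits count both arrays of a clone as separate samples, so their SEs and intervals for Yaf2 may be too small.

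The receptor Pdgfrb had the largest OHT difference of the 10. It read 254 (clone 3086), 172 (clone 3087) and 169 (clone 3031) on OHT+ arrays, against 101, 61.4 and 73.4 on OHT- arrays. The OHT+ arrays were all above the OHT- arrays, and all 3 OHT- values were under the dim limit. Means were 199 ± 48.2 with OHT and 78.5 ± 20.1 without it (SD, n = 3 each). The fitted difference was 1.34 ± 0.29 on the log2 scale (SE; 95% interval 0.58 to 2.11), a 2.54-fold higher signal, and the clones gave 1.34, 1.49 and 1.21 in the same order. It did not pass in limma (adjusted p = 0.596), nor with the intensity trend (adjusted p = 0.246) or with trend and clone block together (adjusted p = 0.116). A second probe set for Pdgfrb was under the limit on all arrays, at 82.3, 19.4 and 28.8 with OHT and 13.4, 4.91 and 15.0 without it. By Yaf2 status Pdgfrb differed by 0.20 ± 0.30, and the interval ran from -0.61 to 1.02.

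**Figure D1:**
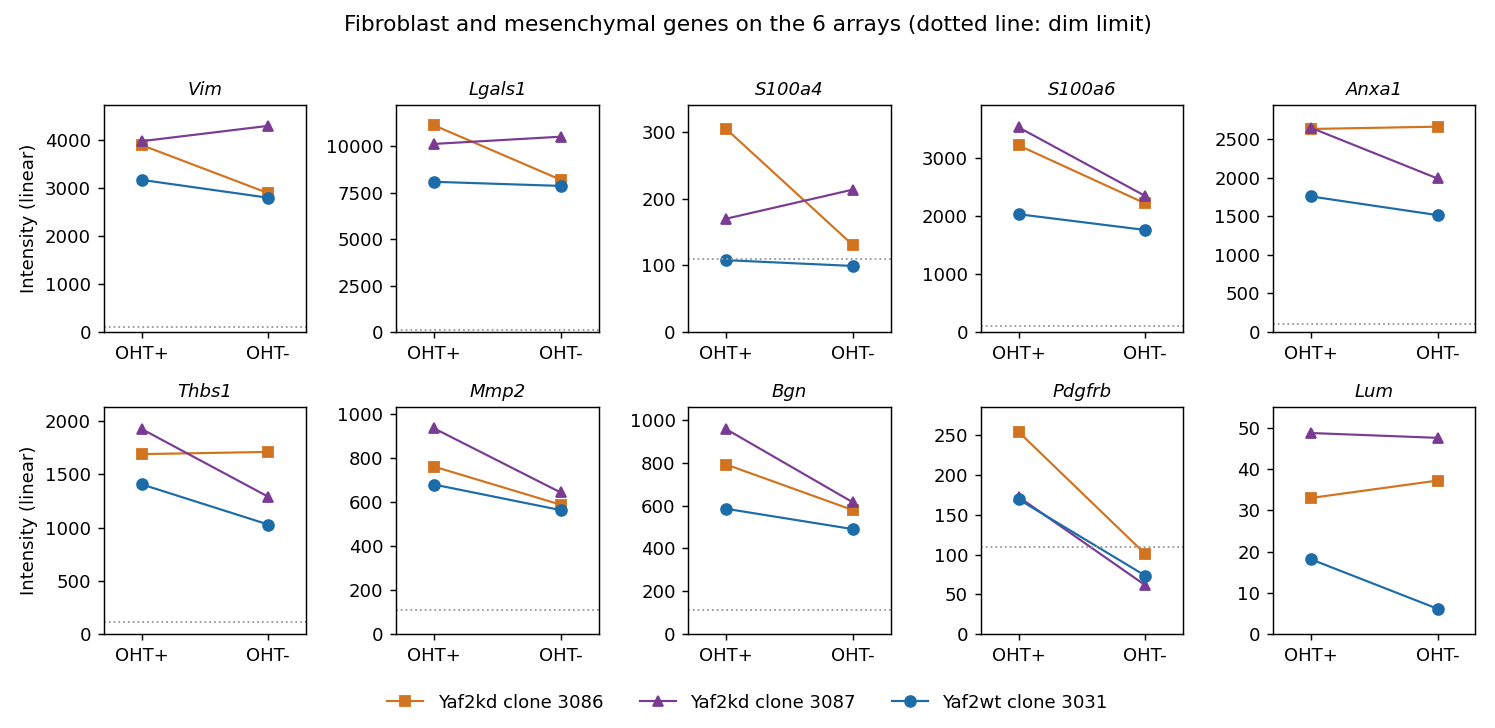
Signal of the brightest probe set of each gene on the 6 arrays (y axis, linear intensity; each panel has its own scale), for OHT+ and OHT- cells; a line joins the arrays of a clone and the dotted line is the dim limit of 110.01. The OHT+ arrays lie above the OHT- arrays without overlap for Mmp2 and Pdgfrb, and Lum lies under the limit on every array.

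Mmp2 was the other gene whose OHT+ and OHT- arrays did not overlap, so that 2 of 10 genes had all OHT+ arrays above all OHT- arrays, against 7.5% of all genes. Its signal was 763 (clone 3086), 937 (clone 3087) and 681 (clone 3031) with OHT, and 589, 645 and 564.5 without it. In every clone the treated array was the higher, and the highest untreated value stayed under the lowest treated one. The means were 794 ± 131 for OHT+ and 599.5 ± 41.2 for OHT- (SD, n = 3 each), a difference of 0.39 ± 0.16 (SE; 95% interval -0.04 to 0.83; limma adjusted p = 0.766). The second Mmp2 probe set also had every OHT+ array above every OHT- array, with 677, 618 and 567 in OHT+ cells and 551, 528 and 487 in OHT- cells. By Yaf2 status Mmp2 differed by 0.22 ± 0.17.

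Bgn, a proteoglycan of the pericellular matrix, read 792 (clone 3086), 957 (clone 3087) and 585 (clone 3031) in OHT+ cells and 579, 615 and 490 in OHT- cells. Each clone was higher with OHT, but the Yaf2wt OHT+ array lay within the range of the Yaf2kd OHT- arrays, so the groups overlapped. The difference was 0.45 ± 0.16 (95% interval 0.01 to 0.89; limma adjusted p = 0.758). By Yaf2 status it was 0.43 ± 0.17 (95% interval -0.04 to 0.89). Both other Bgn probe sets were higher with OHT in every clone: one read 518, 619 and 439 against 509.9, 489 and 254, and the other 686, 965 and 445 against 509, 481 and 440.

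Thbs1 was higher with OHT in 2 of the 3 clones. It read 1691 (clone 3086), 1926 (clone 3087) and 1406 (clone 3031) in OHT+ cells, and 1711, 1290 and 1029 in OHT- cells. Clone 3086 was flat, and the untreated array of that clone was above the treated array of clone 3031. The OHT difference was 0.34 ± 0.18 and the Yaf2 difference 0.44 ± 0.19 (SE), neither past the threshold (limma adjusted p = 0.809 for OHT and 0.751 for Yaf2). The second Thbs1 probe set read 917, 1225 and 738 with OHT against 918, 776.5 and 522 without it, and the one shared with Pald1 differed by 0.32 ± 0.14.

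Lum, a keratan sulfate proteoglycan that shapes collagen fibrils and a more fibroblast-restricted gene than most of the others, was under the dim limit on all 6 arrays. It read 33.0 (clone 3086), 48.8 (clone 3087) and 18.1 (clone 3031) with OHT, against 37.2, 47.6 and 6.12 without it. All Yaf2kd arrays were above both Yaf2wt arrays, and the fitted Yaf2 difference of 1.96 ± 0.46 (95% interval 0.73 to 3.20; limma adjusted p = 0.743) rests on these low signals. It was 1.15 without the Yaf2wt OHT- array, 2.78 without the Yaf2wt OHT+ array and 0.75 with 32 added to each intensity, against 0.75 for S100a4 with that offset. The OHT difference was 0.48 ± 0.43 and was largest in the Yaf2wt clone, with 1.57 there, -0.17 in clone 3086 and 0.03 in clone 3087. None of the other 9 small leucine-rich proteoglycans measured, Dcn, Fmod and Ogn among them, was over the limit on any array.

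Among the cytoplasmic proteins, S100a6 (calcyclin) was higher in each clone with OHT and also higher in Yaf2kd cells. Its signal was 3215 (clone 3086), 3525 (clone 3087) and 2029 (clone 3031) with OHT, and 2215, 2343 and 1758 without it. The Yaf2kd arrays were all above the Yaf2wt arrays, and the lowest value was on the Yaf2wt OHT- array. The OHT difference was 0.44 ± 0.16 (95% interval 0.02 to 0.86; limma adjusted p = 0.746) and the Yaf2 difference 0.55 ± 0.17 (0.11 to 1.00; adjusted p = 0.743). With the intensity trend the adjusted p was 0.246 for OHT and 0.28 for Yaf2.

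S100a4, also called fibroblast-specific protein although other cells make it, had a signal near the dim limit that varied between clones. It read 305 (clone 3086), 170 (clone 3087) and 108 (clone 3031) in OHT+ cells, and 131, 214 and 99.2 in OHT- cells. Clone 3086 was higher with OHT by 1.22, clone 3031 by 0.12, and clone 3087 lay lower, at -0.33. The clones therefore differed more among themselves than the OHT+ and OHT- means did, with a difference of 0.34 ± 0.34 (95% interval -0.57 to 1.25; limma adjusted p = 0.889). All Yaf2kd arrays were above both Yaf2wt arrays, which were under the dim limit, and that difference was 0.92 ± 0.36 (adjusted p = 0.743).

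Anxa1 was higher on every Yaf2kd array than on either Yaf2wt array. Its values were 2632 (clone 3086), 2647 (clone 3087) and 1757 (clone 3031) with OHT, against 2661, 1990 and 1515 without it. The Yaf2kd arrays averaged 2483 ± 329 (SD, n = 4 arrays of 2 clones) and the Yaf2wt arrays 1636 ± 171 (SD, n = 2 arrays of 1 clone), with no overlap. This gave a Yaf2 difference of 0.60 ± 0.18 (95% interval 0.10 to 1.09; limma adjusted p = 0.743, or 0.28 with the intensity trend). The OHT difference was 0.20 ± 0.17, with clone 3086 at -0.02, and it was 0.32 without the OHT- array of clone 3086 and 0.08 without that of clone 3087. The second Anxa1 probe set was under the limit on all arrays, at 6.64 to 46.2 with OHT and 3.87 to 5.02 without it.

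Vim and Lgals1 had the smallest OHT differences of the 10. Vim read 3903 (clone 3086), 3985 (clone 3087) and 3176 (clone 3031) in OHT+ cells and 2899, 4305 and 2804 in OHT- cells, and Lgals1 read 11117, 10115 and 8078 in OHT+ cells and 8189, 10503 and 7856 in OHT- cells. In both genes clone 3086 was higher with OHT, clone 3087 was slightly lower, and clone 3031 was slightly higher. The OHT differences were 0.17 ± 0.20 for Vim (95% interval -0.38 to 0.71) and 0.14 ± 0.17 for Lgals1 (-0.31 to 0.60), with limma adjusted p of 0.911 and 0.909 in that order. Single arrays decided these sizes: without the clone 3086 OHT- array they were 0.00499 and 0.0252, and without the clone 3087 OHT- array 0.33 and 0.23. By Yaf2 status both differed by 0.32, with SE 0.21 for Vim and 0.18 for Lgals1, and the Yaf2kd arrays did not overlap the Yaf2wt arrays for Lgals1. The other Vim probe sets read 2856, 2985 and 2471 with OHT against 2694, 3122 and 2147 without it, and 1982, 2396 and 1608 against 1442, 2308 and 1444. The second Lgals1 probe set read 7243, 6729 and 5433 against 5759, 6672 and 5149.

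**Figure D2:**
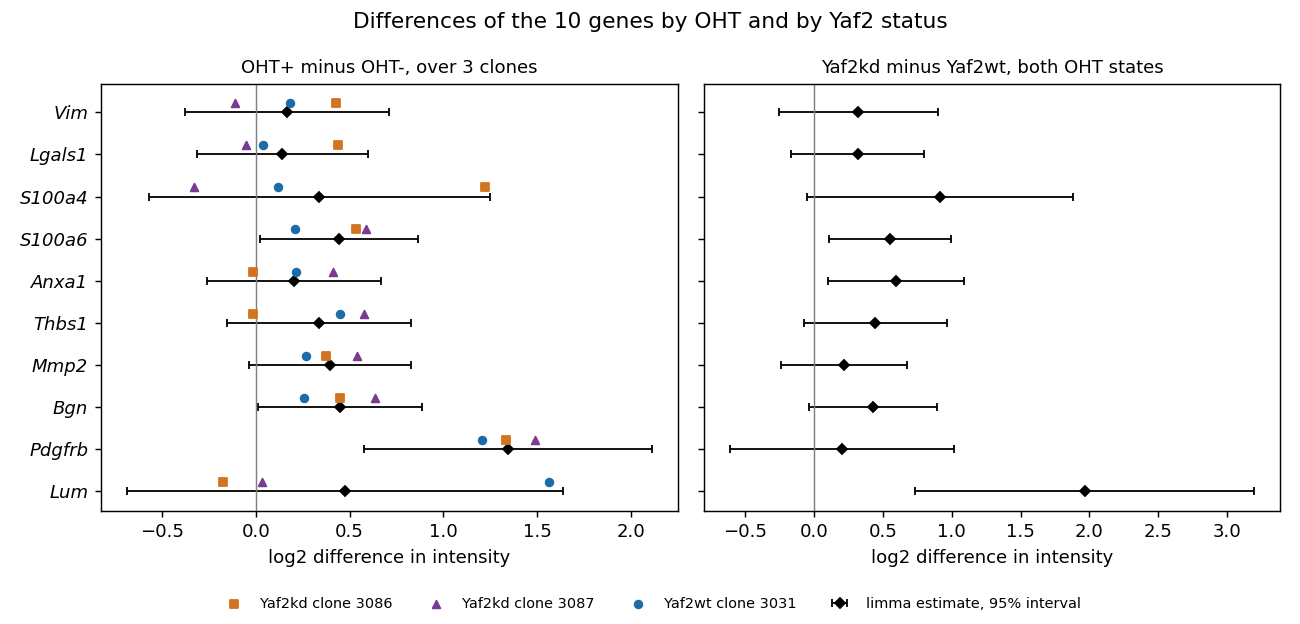
Log2 difference in intensity of each gene, OHT+ minus OHT- (left; coloured points are the 3 clones) and Yaf2kd minus Yaf2wt (right); diamonds are limma estimates with 95% intervals. The OHT estimates run from 0.14 (Lgals1) to 1.34 (Pdgfrb) and the Yaf2 estimates from 0.20 (Pdgfrb) to 1.96 (Lum, under the dim limit), and no estimate passed after correction.

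The promoters of the members in the RefSeq table (GRCm38.p6, 5 of 10 genes) are shown as background. Whether their sequence bears on the signals described here was not tested. Each line is the 100 bases before the annotated start, with a TATA box (TATAAA) in capitals.
Vim, chr2:13574211-13574310, plus strand: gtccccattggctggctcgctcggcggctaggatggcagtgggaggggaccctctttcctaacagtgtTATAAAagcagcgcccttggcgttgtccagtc
S100a4, chr3:90603670-90603769, plus strand: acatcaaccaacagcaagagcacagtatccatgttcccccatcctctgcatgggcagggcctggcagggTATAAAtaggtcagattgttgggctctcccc
Anxa1, chr19:20390672-20390771, minus strand: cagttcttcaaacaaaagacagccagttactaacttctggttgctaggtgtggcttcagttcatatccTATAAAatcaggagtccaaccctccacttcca
S100a6, chr3:90612794-90612893, plus strand: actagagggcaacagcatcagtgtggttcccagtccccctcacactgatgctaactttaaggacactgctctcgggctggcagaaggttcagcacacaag
Bgn, chrX:73483501-73483600, plus strand: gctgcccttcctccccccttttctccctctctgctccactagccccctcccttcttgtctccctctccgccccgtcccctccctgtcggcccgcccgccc
The 4 motifs searched on both strands in the 250 bases before the start were CACGTG (an E-box), TCCCGC (an E2F-type site), TATAAA and TGANTCA (an AP-1-type site). TATAAA, present in 12.4% of 32851 promoters, was found in Vim, S100a4 and Anxa1, and it lay 32 to 27 bases before the start in Vim and Anxa1 and 31 to 26 bases before it in S100a4. None of the 4 motifs was found in the S100a6 and Bgn windows, which says only that these letters are absent there. CACGTG is in 6.02%, TCCCGC in 16.9% and TGANTCA in 6.75% of the promoters. S100a4 and S100a6 lie in the same cluster of S100 genes, with S100a5 between them.

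Across the 6 arrays, most of the genes were lowest on the same array and highest on a Yaf2kd OHT+ array. The lowest array was Yaf2wt OHT- for 9 of the 10 genes, Pdgfrb being the exception, where 16.0% of all genes were lowest there. The highest array was a Yaf2kd OHT+ array for 8 of 10, against 37.0% of all genes, with Vim and Anxa1 the exceptions. Of these arrays, that of clone 3086 was highest for 3 genes and that of clone 3087 for 5. Both held for 7 genes, against 8.55% of all: Lgals1, S100a4, S100a6, Thbs1, Mmp2, Bgn and Lum. The 7 genes over the dim limit on all arrays had a mean deviation from their own average of 0.25 and 0.36 on the Yaf2kd OHT+ arrays and -0.16 on the Yaf2wt OHT+ array, against -0.06, -0.01 and -0.39 on the OHT- arrays of the same clones. Bgn followed this mean profile most closely (root mean square distance 0.0957 log2) and Anxa1 least (0.176). Of 10005 other genes compared, the profiles closest to it were those of Atp9b, Timp2, Itpa, Med21 and Hspb2, at distances from 0.0563 to 0.0665. Timp2, an inhibitor that also binds Mmp2, read 834, 868 and 572 with OHT and 595, 629 and 502 without it, for clones 3086, 3087 and 3031.

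Over all 10 genes the median OHT difference was 0.37 (all genes: -0.003), and by clone the medians were 0.44 (3086), 0.48 (3087) and 0.23 (3031). The number of genes higher with OHT was 7 in each Yaf2kd clone and 10 in the Yaf2wt clone. At an unadjusted p under 0.05, 3 of the 10 were higher with OHT (S100a6, Bgn and Pdgfrb), against 683 of 18193 genes and 3.37% of probe sets. By Yaf2 status 3 were higher at that level (S100a6, Anxa1 and Lum), against 655 of 18193 genes and 3.55% of probe sets. In the Yaf2 comparison the median was 0.44 (all genes: 0.04), and of the 9 genes with a mean over the dim limit 4, Lgals1, S100a4, S100a6 and Anxa1, had all Yaf2kd arrays above both Yaf2wt arrays, against 12.9% of all genes over that limit. Only S100a6 was past an unadjusted p of 0.05 in both comparisons. The comparisons use the same arrays, so the values are set side by side and no overlap is tested.

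The OHT effect within Yaf2kd cells (2 arrays against 2) was called for 0 of 45037 probe sets by limma (0.0%; 2759 past the unadjusted threshold), and for 17 with the intensity trend (0.0377%), none of them among the 10 genes. The differences there ran from -0.07 for Lum to 1.41 for Pdgfrb. In the Yaf2wt clone, 1 array against 1 with no test, Pdgfrb differed by 1.21, Lum by 1.57 and the others by 0.04 to 0.45. The difference of the OHT effects between Yaf2kd and Yaf2wt cells passed for no probe set of 45037 (0.0%), with 2289 at an unadjusted p under 0.05, and among the 10 it ran from -1.63 for Lum to 0.36. For Lum the interval was wide (SE 0.55, limma adjusted p = 0.985).

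The fibroblast matrix and surface list held 28 genes outside the 10. With OHT, 16 of them were higher in all 3 clones and 1 was lower in all 3, against 16.8% and 17.6% of all genes. By their mean log2 signal 20 were higher and 8 lower, and 10 of the 28 had a mean under the dim limit. The summed signal of the list was 27230, 28298 and 25692 with OHT, for clones 3086, 3087 and 3031. Without OHT it was 27535, 22649 and 25636, so only clone 3087 had a clearly higher sum. The median was 0.37, and none passed in limma. Col1a1, the main collagen of bone and skin, read 262, 308 and 177 in OHT+ cells and 215.5, 141 and 115 in OHT- cells, for clones 3086, 3087 and 3031, a difference of 0.67 ± 0.22. Col5a2, a minor fibrillar collagen, did not overlap between states (873, 808 and 684 with OHT against 630, 505 and 436 without it) and differed by 0.60 ± 0.16, and Mfap5, a microfibril protein, by 0.71 ± 0.16. Fbln2, an elastic-fibre protein, differed by 0.63 ± 0.25. Their adjusted p did not pass in limma, and Yaf2 differences of the list had a median of 0.32.

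Contractile and smooth muscle genes form the actin-based machinery of myofibroblasts. Of the 9 measured, all over the dim limit, 2 were higher and 5 lower in all 3 clones with OHT (median -0.12). Of all genes, 17.6% were lower in all 3 clones. All Yaf2kd arrays lay above the Yaf2wt arrays for 7 of 9 (median Yaf2 difference 0.52), against 12.9% of genes over the dim limit. Cnn1 (calponin) read 324, 363.5 and 177 in OHT+ cells and 671, 451 and 310 in OHT- cells, for clones 3086, 3087 and 3031, a difference of -0.72 ± 0.21. Tpm1 (tropomyosin) read 5210, 3651 and 3954 with OHT and 8373, 5873 and 5553 without it. It differed by -0.62 ± 0.24, with every OHT+ array below every OHT- array, and passed with the intensity trend and the clone block together (limma adjusted p = 0.0168) but not in the fit without them. Acta2, smooth muscle actin, lay the other way, at 0.31 ± 0.14, with Yaf2kd above Yaf2wt on all arrays.

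In the epithelial list, 0 of 10 genes were higher and 7 lower in all 3 clones with OHT, against 16.8% and 17.6% of all genes. The median was -0.17. Krt18, a simple-epithelium keratin, differed by -0.37, Cldn7 by -0.42 and Cldn3, both tight junction proteins, by -0.28. The epithelial splicing factor Esrp1 differed by -0.27. Of 8 regulators of epithelial to mesenchymal transition the median was 0.10, or 0.22 over the 4 with a mean over the dim limit. Snai2 was at 0.69, Snai1 at 0.35, Cdh2 (N-cadherin) at 0.08 and Zeb1 at 0.07. None of these passed. In the TGF-beta and YAP response list the median was 0.08 over 10 genes, with Tgfbi at 0.69 and Ccn1 at -0.38.

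Relatives of the members by family varied. S100a13, a calcium-binding protein in the same cluster as S100a4 and S100a6, was at 1743, 2492 and 2765 with OHT and 885, 1180 and 1021 without it, for clones 3086, 3087 and 3031. All treated arrays were above all untreated arrays, and the difference of 1.16 ± 0.24 passed in limma with the intensity trend (adjusted p = 0.0327, or 0.00273 with the clone block added) but not without it (adjusted p = 0.583). S100a13 was the only list gene past the threshold as higher with OHT in the trend fit. S100a10 and S100a16 differed by 0.43 each and did not pass. Of the 11 other S100 genes, 3 were higher and 4 lower in all 3 clones, against 16.8% and 17.6% of all genes. By clone the medians were 0.43 (3086), -0.06 (3087) and -0.17 (3031), and 7 of the 11 were under the dim limit on all arrays. The annexins had a median of 0.09 for OHT and 0.19 for Yaf2, and Anxa2 differed by 0.66 by Yaf2 status. All Yaf2kd arrays lay above the Yaf2wt arrays for 5 of 10 annexins, against 12.9% of genes over the dim limit. Of the 10 annexins, 3 were under that limit, so the share is only a rough guide. Among galectins Lgals9 differed by 0.46 and Lgals3 by 0.45. The metalloproteinase group had a median of 0.10 over 13 genes, or 0.35 over the 7 with a mean over the dim limit. Mmp11 was at 0.57, Timp3 at 0.51 and Timp2 at 0.38. Of 6 PDGF ligands and other receptors Pdgfa, a ligand, differed by 0.41, and Pdgfc and Pdgfb by -0.37 and -0.26. The intermediate filaments, relatives of Vim, had a median of -0.03, or -0.19 over the 9 with a mean over the dim limit. Nes (nestin) was at -0.63 ± 0.15.

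**Figure D3:**
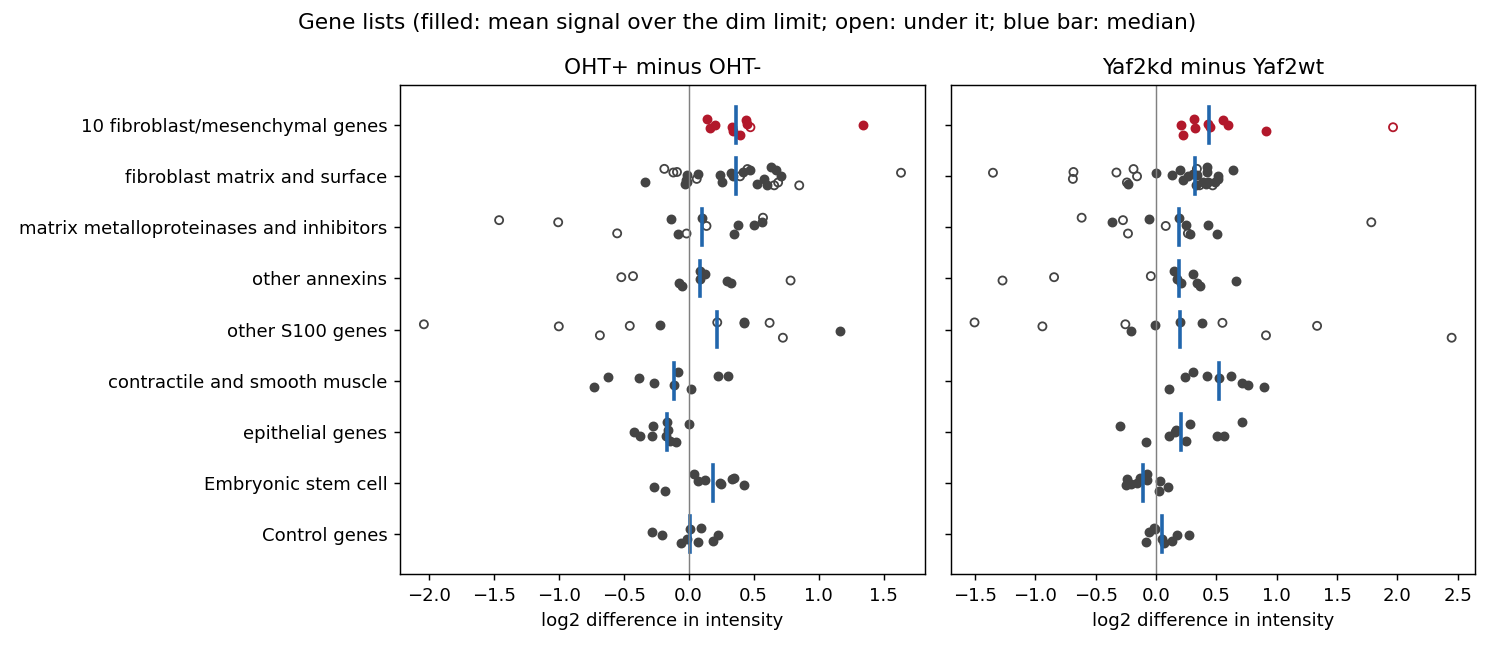
Log2 difference of each gene of 9 lists, OHT+ minus OHT- (left) and Yaf2kd minus Yaf2wt (right); filled points have a mean signal over the dim limit, open points under it, and the blue bar is the median. The 10 genes (red) lie above 0 in both panels with medians of 0.37 and 0.44, contractile genes have medians of -0.12 and 0.52, and control genes a median of 0.01 for OHT.

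Markers of the cell types a culture could hold were measured on the same arrays. The 8 defining fibroblast genes outside the 10 (Col1a1, Col1a2, Col3a1, Postn, Dcn, Thy1, Fap and Prrx1) summed to 1343 to 1851 in OHT+ cells and 1141 to 1370 in OHT- cells. Of these 8, 5 were higher in all 3 clones with OHT and none lower in all 3, against 16.8% and 17.6% of all genes. Of the 8, 4 had a mean under the dim limit and 3 were over it on all 6 arrays. Dcn and Fap were under the limit on all 6 arrays, and no gene of the list was listed at 0. Xist, made from an inactive X, read 401, 383 and 679 with OHT and 550, 567.5 and 581 without it, for clones 3086, 3087 and 3031. The summed signal of the 10 genes was 24703, 24483 and 18009 with OHT and 19113, 22013 and 16194 without it, in the same order of clones. The Y-linked gene Eif2s3y differed by 0.05. Of the 4 sex-linked genes measured, 2 were higher and 2 lower with OHT by their mean, and all 4 were mixed over the clones. The 3 with a mean over the dim limit had a median of -0.27, the value of Xist, so a Y-linked gene among them fell further than that. Median OHT differences were 0.01 for primitive endoderm, 0.16 for mesoderm, -0.23 for endothelial and -0.17 for macrophage and blood markers. In that order, only 4 of 9, 2 of 7, 1 of 4 and 2 of 5 markers had a mean over the dim limit. These medians therefore rest largely on low signals, and over the markers above the limit they were 0.08, 0.14, -0.36 and -0.08. By clone the mesoderm median was -0.32 (3086), 0.75 (3087) and 0.02 (3031). The embryonic stem cell markers summed to 104818 to 109565 with OHT and 97992 to 102912 without it. Of these 10 markers, 8 were higher in all 3 clones, against 16.8% of all genes, with Nanog at 0.42 ± 0.14. Their part in the differences of the 10 genes, and that of RNA from a feeder layer, was not tested.

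**Figure D4:**
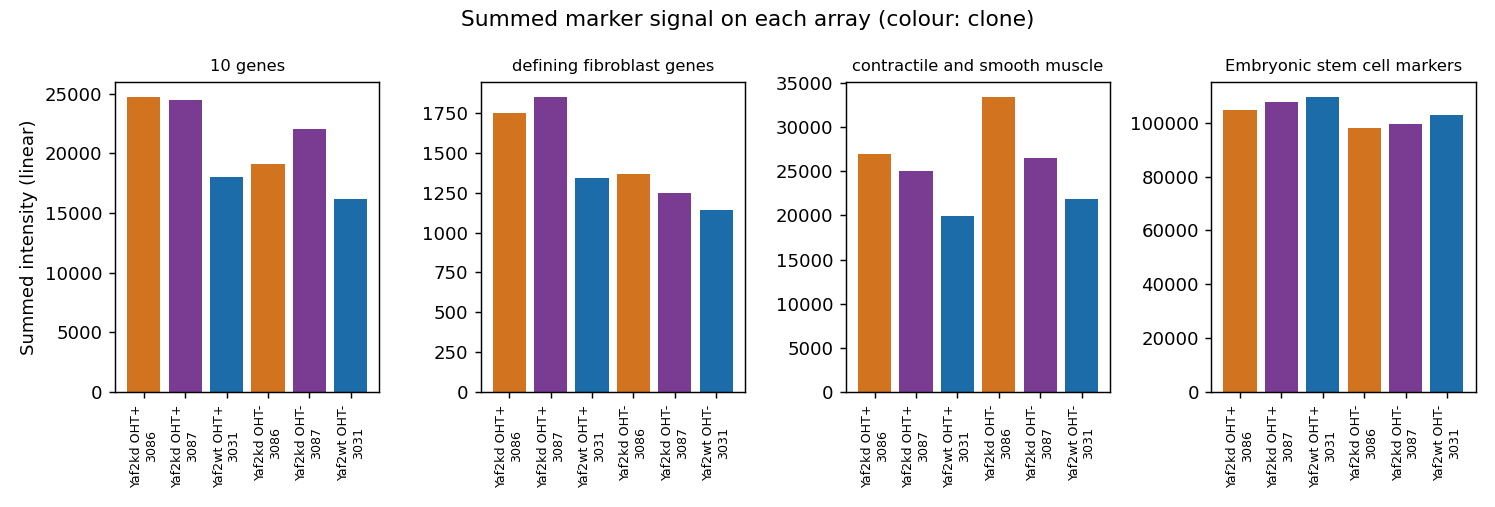
Summed linear intensity (y axis, from 0) of the 10 genes, the 8 defining fibroblast genes, the contractile genes and the embryonic stem cell markers on each array; colours mark the clones. Within its own panel, the sum over the defining fibroblast genes was 1343 to 1851 on OHT+ arrays and 1141 to 1370 on OHT- arrays, and that over the embryonic stem cell markers was 104818 to 109565 on OHT+ arrays and 97992 to 102912 on OHT- arrays.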

How the data were processed

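The table the authors deposited gives linear intensity for each probe set, and their processing is known only from the submitters' processing notes, which name Affymetrix Expression Console and RMA without versions. All arrays hold the same sorted values (range 0.140 to 45795, median 102), as quantile normalization leaves them. The series' design text names the 430A 2.0 array, while the table holds 45101 probe sets; 64 control probe sets were left out. Gene names came from the platform annotation: 34958 probe sets have 1 gene, 932 several and 9211 none.

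Log2 intensity with no offset was fitted with limma 3.58.1 in R 4.3.3 (lmFit, eBayes), with Benjamini-Hochberg adjustment over 45037 probe sets and a threshold of 0.05. The OHT and Yaf2 effects came from a model of both; a model with a term for each of the 4 groups gave the OHT effect in Yaf2kd cells and the difference of effects. Python 3.11.15 made the summaries. On simulated data with known OHT changes the fit returned their size, but without the intensity trend it called none of the changed probe sets and with it many of them, so 0 calls without the trend say little. The OHT+ and OHT- arrays of a clone are paired by the labels; deviations of the arrays of a Yaf2kd clone correlated at r = 0.16 over 21768 probe sets. A replicate is an array. The Yaf2kd replicates come from 2 clones and Yaf2wt has 1 clone, and the number of clones limits the precision. From each list, up to 4 genes were named: those past the test first, then the largest OHT differences among genes over the dim limit. Members and lists were chosen with earlier results of these data known. Alternatives were the intensity trend, a dim filter, a gene table, an offset of 32, control-gene scaling, clone blocks and leaving out arrays or clones.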

Additional observations from a re-analysis of the deposited data

Results flagged for a closer look

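Among the lists, 6 genes flagged for a closer look had an OHT difference of opposite sign in the Yaf2wt clone and in both Yaf2kd clones. They are not all the list genes with this pattern. It also occurred among the small leucine-rich proteoglycans, all under the dim limit, and among the metalloproteinases and inhibitors. In the Yaf2wt clone the log2 difference was -0.25 for Axl, -0.0289 for Synm, 0.35 for Gata4, 0.0205 for Eomes, 0.22 for Xist and -0.00465 for Gusb. In the Yaf2kd clones 3086 and 3087 it was 0.11 and 0.41 for Axl, 1.05 and 0.54 for Synm, -0.32 and -0.03 for Gata4, -0.32 and -0.93 for Eomes, -0.46 and -0.57 for Xist, and 0.34 and 0.34 for Gusb. The Yaf2wt side is 1 array against 1. In the limma test of the difference of the OHT effects none of the 6 passed, each with an adjusted p of 1.0. None of the 10 fibroblast and mesenchymal genes had this pattern.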

How the results depend on the processing

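Without an intensity trend and with all probe sets kept, the fits called 0 probe sets in all 4 comparisons. For the OHT effect the count was 63 with the intensity trend, 26 with dim probe sets left out, 101 with the intensity trend and clone as replicate block, and 100 with the trend and the dim filter together, a setting chosen after seeing the data. For the OHT effect in Yaf2kd cells it was 17 with the trend and 35 with trend and filter, and for the Yaf2 effect 1 with trend and filter. The clone as replicate block by itself gave 0 calls, with 3060 probe sets at an unadjusted p under 0.05 for OHT against 2956 without the block, and the pairing changed no call of the 10 genes. Leaving out single arrays or clones gave 0 calls in every such fit, and a median of the 10 genes from 0.32 to 0.43 for OHT and 0.35 to 0.48 for Yaf2. Adding the clone as a random replicate block to the Yaf2 effect, also chosen after seeing the data, gave 0 calls with and without the trend; the estimated correlation between arrays of a clone was -0.09. Of 306 results of single members under the alternatives, 301 kept their direction and side of the threshold and 5 changed direction, none of them past the threshold: for OHT, Lgals1 ran from -0.00703 without clone 3086 to 0.24 without clone 3087, S100a4 from -0.10 to 0.67 without the same clones, and Lum from -0.0693 without clone 3031 or either of its arrays to 0.80 without clone 3086. Leaving out an array moved the OHT difference by over 1.5 times for 5 of the 10 genes (Vim, Lgals1, S100a4, Anxa1 and Lum) and the Yaf2 difference for 5 (Vim, Mmp2, Bgn, Pdgfrb and Lum). Without an array, the OHT difference ran from 0.00499 to 0.33 for Vim and the Yaf2 difference from 1.15 to 2.78 for Lum and 0.06 to 0.37 for Pdgfrb. Few arrays and, for Lum, S100a4 and Pdgfrb, low signal limit what could be detected.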
